A study of Homo sapiens with 6 samples.

Results

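The ATP-binding cassette (ABC) transporters that export drugs from cells were followed on expression arrays as the genes ABCB1, ABCC1, ABCC2, ABCC3, ABCC4, ABCC5, ABCC10 and ABCG2. Every probe set whose platform annotation names at least 1 of these 8 genes was taken, which gave 21 of the 54675 probe sets with values. ABCC3 had 5 probe sets, ABCC4 had 4, ABCB1 and ABCC5 had 3 each, ABCC1 and ABCC10 had 2 each, and ABCC2 and ABCG2 had 1 each. Of the 21, 20 reached the limit set on mean level (5.55 on the log2 scale, the 25th percentile of all probe sets) and were tested among 40950 probe sets.

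The study exposed DMS-53, a single human small cell lung cancer cell line, to 2 metal chelators and measured RNA on Affymetrix U133 Plus 2.0 arrays. Cells were kept for 24 h in medium with 250 µM desferrioxamine (DFO), in medium with 25 µM Dp44mT, or in RPMI medium alone as control, with 2 arrays per group. DFO is a siderophore with limited entry into cells, whereas Dp44mT is a thiosemicarbazone that crosses membranes and takes up both iron and copper. Because the doses differ by design, the direct comparison of the chelators is one of these 2 conditions and not of equal doses. Arrays are numbered by the set named in their titles. The labels do not tell whether sets were separate cultures, so a p-value here reflects the spread from array to array, part of which may be technical.

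ABC transporters use the energy of ATP hydrolysis to move substrates across membranes. ABCB1 encodes P-glycoprotein, which exports many bulky hydrophobic drugs and has been described as accepting Dp44mT as a substrate. The ABCC genes encode multidrug resistance-associated proteins, several of which export organic anions such as glutathione conjugates. ABCG2 encodes the breast cancer resistance protein, which works as a dimer.

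The arrays of set 2 with a chelator stood apart from the other 4. Median deposited intensity was 85.5 and 63.0 in DFO, 83.6 and 49.9 in Dp44mT, and 88.9 and 88.8 in control (arrays 1 and 2). Arrays of a group correlated across all probe sets tested, which are not independent replicates, at 0.907 in DFO, 0.886 in Dp44mT and 0.970 in control. The 11 neuroendocrine markers measured, which mark small cell lung cancer, and the 5 epithelial markers all lay above the filter limit. Of these INSM1 fell in Dp44mT (log2 −3.37, limma adjusted p = 0.0154) and ENO2 rose in both chelators (log2 1.74 in DFO and 2.03 in Dp44mT, limma adjusted p = 0.0427 and 0.0217), calls that were lost without any 1 array of the groups compared. Of the 11 neuroendocrine markers 1 rose in DFO, and 1 rose and 1 fell in Dp44mT, where 0.794% and 2.06% of all genes were called. Of the 5 epithelial markers 0 passed in either chelator (limma). The summed normalised intensity of the neuroendocrine markers was 20164 and 20097 in DFO, 19469 and 18713 in Dp44mT, and 24457 and 26916 in control. Markers of fibroblasts, endothelium and leukocytes had their highest summed intensities on the set 2 chelator arrays. For 10 fibroblast markers the sum was 1189 and 2724 in DFO, 1408 and 3383 in Dp44mT, and 1471 and 839 in control. For 6 endothelial markers it was 744 and 1718 in DFO, 758 and 2119 in Dp44mT, and 800 and 398 in control. For 6 leukocyte markers it was 651 and 1365 in DFO, 920 and 1930 in Dp44mT, and 815 and 580 in control. PDGFRB, FAP, CDH5, ESAM and PTPRC lay below the filter limit. Of the 8 fibroblast, 4 endothelial and 5 leukocyte genes tested, 0 passed in either chelator in limma, against the same shares of all genes. An unadjusted p under 0.05 (limma) was found for 1 endothelial gene in each chelator and for 0 of the others. Of all probe sets tested, 11.1% in DFO and 21.5% in Dp44mT had one. The part of these signals in the transporter values was not tested, and in RNA from a whole culture fewer cells and less RNA per cell cannot be told apart.

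No probe set of the 8 genes passed the test in DFO or in Dp44mT. Values are log2(deposited intensity + 16) after quantile normalization, and a change is the difference of group means on that scale, which understates the change of dim probe sets. A call required an adjusted p under 0.05 (limma with Benjamini-Hochberg adjustment over all probe sets tested). For DFO against control 0 of the 20 passed, against 0.589% of all probe sets tested, and 5 had an unadjusted p under 0.05, where 11.1% of all probe sets did. For Dp44mT against control 0 of the 20 passed, against 1.64% of all, and again 5 had an unadjusted p under 0.05, where 21.5% of all did. In each comparison they were ABCB1 209993_at and 209994_s_at, ABCC1 202804_at, ABCC3 209641_s_at and ABCC5 209380_s_at, and both comparisons use the same 2 control arrays.

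The members lay on both sides of the control. In DFO, 7 probe sets had both arrays above both control arrays, as did 17% of all probe sets, and 10 had both below, as did 27.8% of all. In Dp44mT, 8 lay above without overlap, as did 28.5% of all, and 9 below, as did 32.8% of all. Changes ran from −0.78 to 0.71 in DFO, with a median of −0.15 against −0.04 over all probe sets. They ran from −1.10 to 0.85 in Dp44mT, with a median of −0.11 against 0.01 over all. The 95% confidence interval of a member's change reached a median of 0.59 to either side, so changes smaller than that could not be told from 0 for a typical member.

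**Figure D1:**
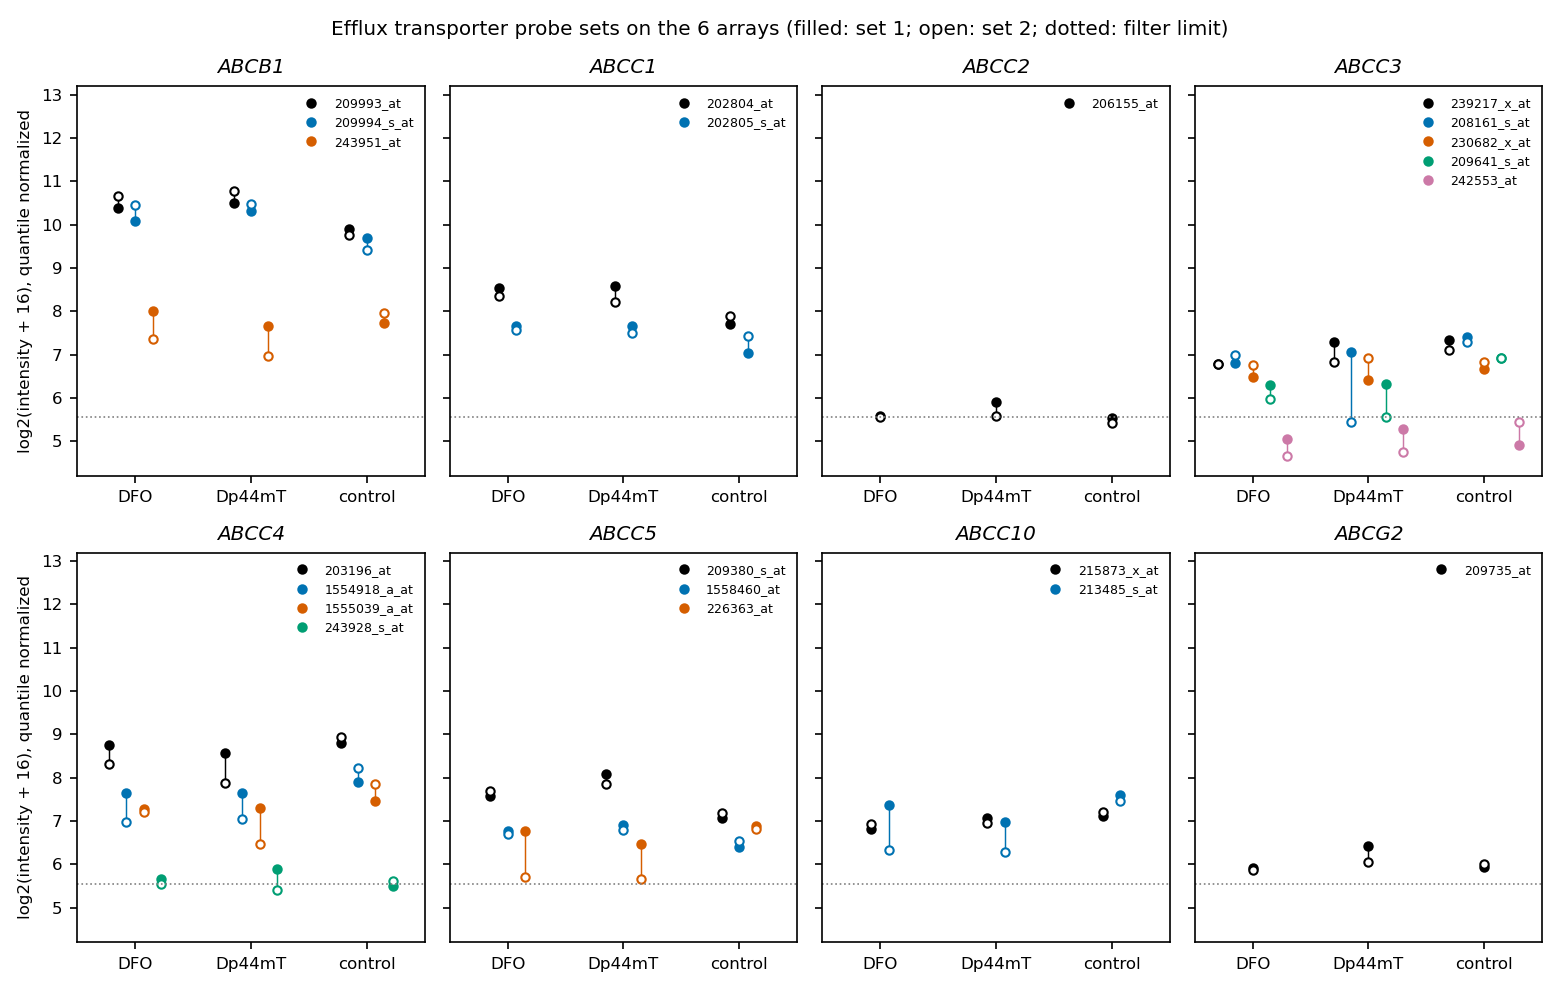
Level of each of the 21 probe sets on the 6 arrays, in log2(intensity + 16) after quantile normalization, by gene and group. Filled points are set 1, open points are set 2 and the dotted line is the filter limit of 5.55. In ABCB1, ABCC1 and ABCC5 the brightest probe set stood above control in both chelator groups, and 242553_at of ABCC3 lay below the limit.

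ABCB1 stood higher in both chelators on 2 of its 3 probe sets, without passing the test. ABCB1 209993_at read 10.39 and 10.65 in DFO, 10.50 and 10.77 in Dp44mT, and 9.90 and 9.77 in control. All 4 chelator arrays lay above both control arrays. The change was 0.69 in DFO, or 1.61-fold (SE 0.21, 95% interval 0.15 to 1.22, n = 2 arrays per group, limma adjusted p = 0.34). It was 0.80 in Dp44mT, or 1.74-fold (interval 0.27 to 1.33, limma adjusted p = 0.126), so neither passed. The size rested on the scaling: on the deposited scale, without equalizing array brightness, the changes were 0.29 in DFO and 0.09 in Dp44mT. The deposited intensities themselves were 1810 and 1113 in DFO, 1616 and 940 in Dp44mT, and 1099 and 1222 in control, and the set 2 chelator arrays therefore lay below the control array of set 2 before scaling.

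The other probe sets of ABCB1 did not lie on the same side of control. ABCB1 209994_s_at, which the annotation also assigns to ABCB4, a phospholipid transporter of bile, read 10.09 and 10.46 in DFO, 10.31 and 10.47 in Dp44mT, and 9.70 and 9.42 in control. Its changes were 0.71 in DFO and 0.83 in Dp44mT (limma adjusted p = 0.363 and 0.135), and ABCB1 and ABCB4 cannot be separated on it. ABCB4 itself, read on its own probe set, had changes of 0.18 and 0.24 (limma adjusted p = 0.881 and 0.697). ABCB1 243951_at read 8.01 and 7.35 in DFO, 7.67 and 6.97 in Dp44mT, and 7.73 and 7.97 in control. There the DFO arrays straddled control (change −0.17, interval −1.04 to 0.70) and the Dp44mT arrays lay below it (change −0.53, limma adjusted p = 0.393), opposite in sign to the brighter probe sets.

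ABCG2 had 1 probe set, of low level. ABCG2 209735_at read 5.91 and 5.87 in DFO, 6.43 and 6.07 in Dp44mT, and 5.94 and 6.0 in control. The DFO arrays lay just below control (change −0.08, interval −0.61 to 0.45) and the Dp44mT arrays just above it (change 0.28, interval −0.25 to 0.81, limma adjusted p = 0.438). Intervals of this width do not separate the groups, and the Dp44mT value was −0.03 on the deposited scale.

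ABCC1 encodes MRP1, an exporter of glutathione conjugates and leukotriene C4. ABCC1 202804_at read 8.54 and 8.34 in DFO, 8.58 and 8.21 in Dp44mT, and 7.71 and 7.88 in control. All chelator arrays lay above both control arrays. The change was 0.65 in DFO, or 1.56-fold (SE 0.23, interval 0.08 to 1.21, limma adjusted p = 0.39), and 0.60 in Dp44mT, or 1.51-fold (interval 0.03 to 1.16, limma adjusted p = 0.213). ABCC1 202805_s_at pointed the same way by less, with changes of 0.39 and 0.35 (limma adjusted p = 0.615 and 0.384). In Dp44mT both ABCC1 values turned negative on the deposited scale, at −0.03 and −0.18.

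ABCC2 and ABCC3 encode MRP2, which exports conjugates such as bilirubin glucuronides into bile, and MRP3, a basolateral exporter of glucuronides and bile acids. ABCC2 206155_at read 5.58 and 5.57 in DFO, 5.90 and 5.58 in Dp44mT, and 5.54 and 5.42 in control, beside a filter limit of 5.55. Its mean only just cleared that limit, and the changes of 0.09 and 0.26 had intervals of −0.42 to 0.61 and −0.26 to 0.77. ABCC3 239217_x_at, its brightest probe set, read 6.78 and 6.78 in DFO, 7.28 and 6.82 in Dp44mT, and 7.34 and 7.11 in control. DFO lay below control there (change −0.45, interval −1.04 to 0.15) while Dp44mT overlapped it (change −0.18, interval −0.77 to 0.42).

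ABCC3 209641_s_at had the lowest unadjusted p of the members that were lower than control. It read 6.30 and 5.98 in DFO, 6.33 and 5.55 in Dp44mT, and 6.93 and 6.91 in control. All chelator arrays lay below both control arrays, with a change of −0.78 in DFO (1.71-fold lower, SE 0.31, limma adjusted p = 0.451) and of −0.98 in Dp44mT (1.97-fold lower, interval −1.75 to −0.20, limma adjusted p = 0.164). The change in Dp44mT came to −0.60 in set 1 and −1.36 in set 2. ABCC3 208161_s_at read 6.81 and 6.99 in DFO, 7.06 and 5.45 in Dp44mT, and 7.42 and 7.30 in control. Its change of −1.10 in Dp44mT (limma adjusted p = 0.29) came to −0.36 in set 1 and −1.85 in set 2, so 1 array carried most of it. ABCC3 230682_x_at overlapped control in both chelators (−0.13 and −0.08). ABCC3 242553_at lay below the filter limit and was not tested, with changes of −0.32 and −0.16.

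ABCC4 encodes MRP4, an exporter of cyclic nucleotides and prostaglandins. ABCC4 203196_at read 8.75 and 8.32 in DFO, 8.58 and 7.87 in Dp44mT, and 8.80 and 8.93 in control. All chelator arrays lay below both control arrays, with changes of −0.33 in DFO (interval −1.10 to 0.44, limma adjusted p = 0.746) and −0.64 in Dp44mT (interval −1.41 to 0.13, limma adjusted p = 0.299). Most of the distance lay in set 2, where the differences were −0.61 in DFO and −1.06 in Dp44mT, against −0.04 and −0.22 in set 1. The ABCC4 probe sets 1554918_a_at and 1555039_a_at also lay below control without overlap, with changes of −0.74 and −0.41 in DFO and of −0.72 and −0.76 in Dp44mT. ABCC4 243928_s_at, close to the filter limit, overlapped control (0.04 and 0.10).

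ABCC5 encodes MRP5, which exports cyclic nucleotides and nucleotide analogues, and its brightest probe set had the smallest p of all members in Dp44mT. ABCC5 209380_s_at read 7.58 and 7.70 in DFO, 8.10 and 7.86 in Dp44mT, and 7.06 and 7.19 in control. The chelator arrays all lay above both control arrays, and those of Dp44mT above those of DFO. The change was 0.51 in DFO, or 1.42-fold (SE 0.20, interval 0.01 to 1.01, limma adjusted p = 0.439), and 0.51 in each set alone. It was 0.85 in Dp44mT, or 1.81-fold (interval 0.35 to 1.35, limma adjusted p = 0.101), with 1.03 in set 1 and 0.67 in set 2. Without the set 2 arrays of both chelators the change of ABCC5 209380_s_at in Dp44mT was 0.97. Of the 16 alternative settings, those with 2 arrays in each group compared had no member past the test. A further fit, added after seeing the data, took the set number as a block with the control numbers crossed between sets. There 3 of 20 members passed in Dp44mT, as did 5796 of all 40950 probe sets tested. The fit without the set 2 chelator arrays rests its spread on the 2 control arrays alone.

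Within ABCC5 the probe sets again parted. ABCC5 1558460_at lay above control in both chelators, by 0.27 in DFO and 0.39 in Dp44mT (limma adjusted p = 0.676 and 0.298). ABCC5 226363_at read 6.78 and 5.71 in DFO, 6.48 and 5.66 in Dp44mT, and 6.88 and 6.82 in control, which is the opposite direction. Its changes of −0.61 and −0.78 were −0.10 and −0.40 in set 1, against −1.11 and −1.16 in set 2 (limma adjusted p = 0.689 and 0.352).

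ABCC10 encodes MRP7, an exporter with taxanes among its substrates. ABCC10 215873_x_at read 6.82 and 6.93 in DFO, 7.06 and 6.96 in Dp44mT, and 7.11 and 7.21 in control. The chelator arrays lay below control by little, with changes of −0.29 (interval −0.75 to 0.18, limma adjusted p = 0.664) and −0.15 (interval −0.62 to 0.32, limma adjusted p = 0.622). ABCC10 213485_s_at read 7.36 and 6.33 in DFO, 6.98 and 6.30 in Dp44mT, and 7.59 and 7.47 in control. Its changes of −0.69 and −0.89 (limma adjusted p = 0.635 and 0.285) were wider apart from control in set 2, at −1.15 and −1.17, than in set 1, at −0.23 and −0.61.

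**Figure D2:**
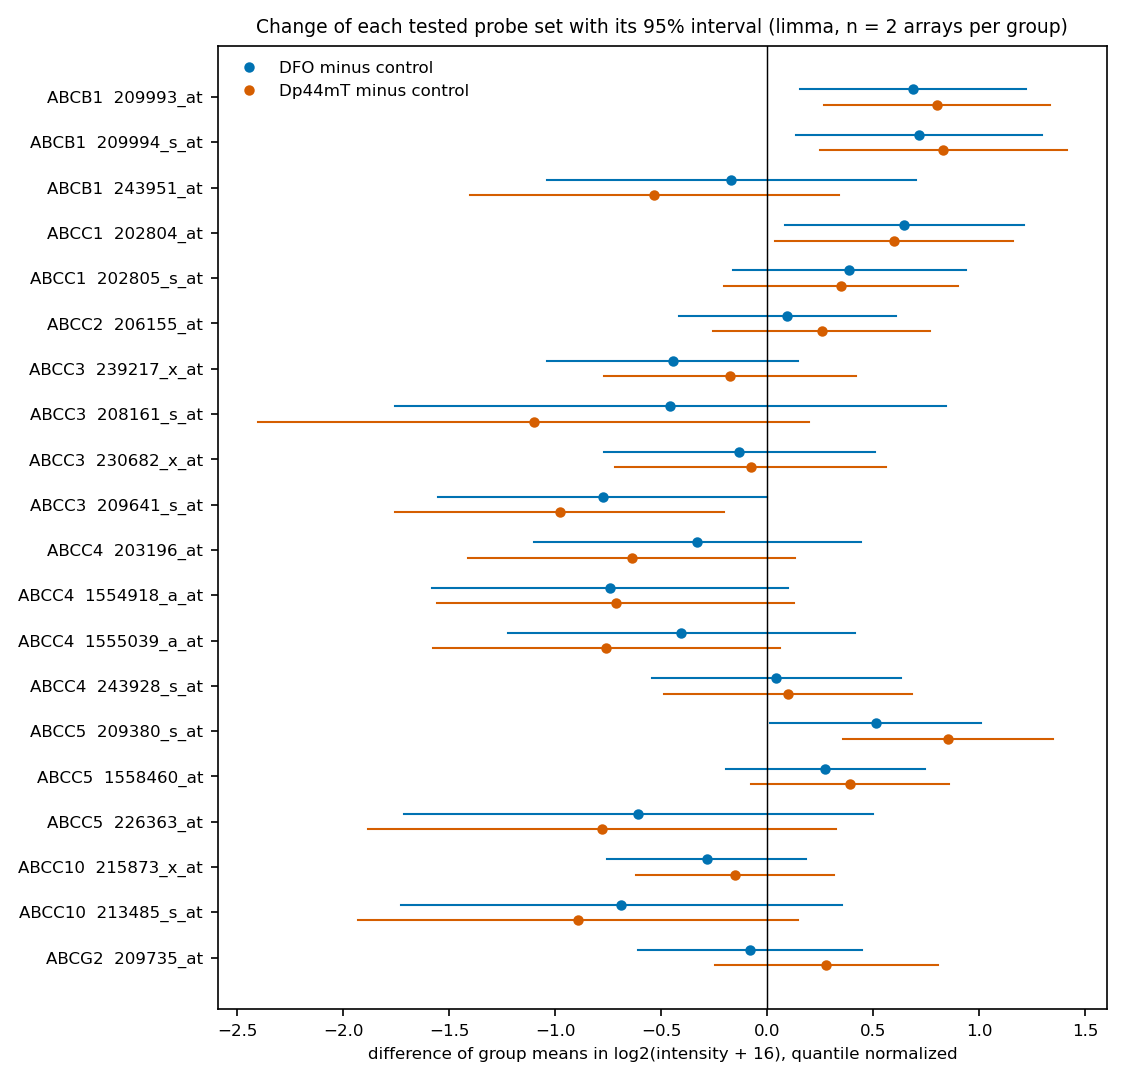
Change of each of the 20 tested probe sets in DFO and in Dp44mT relative to control, as the difference of group means in log2(intensity + 16), with 95% intervals from limma (n = 2 arrays per group). No point passed the test after adjustment, and the probe sets of ABCB1 and of ABCC5 lie on both sides of 0.

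Set 1 and set 2 gave the same sign for most of the 20 members. In DFO, 7 were higher in both sets, 11 were lower in both and 2 had opposite signs, where the shares of all probe sets were 23%, 34.9% and 42%. In Dp44mT, 8 were higher in both, 10 were lower in both and 2 had opposite signs, where the shares were 33.5%, 36.7% and 29.8%. Of the members lower in both sets, the difference was larger in set 2 for 7 of 11 in DFO and for 10 of 10 in Dp44mT, where 77.3% and 86.6% of all probe sets lower in both sets were. Of the members higher in both sets, it was larger in set 2 for 3 of 7 in DFO and for 2 of 8 in Dp44mT, where 49% and 55.4% of all probe sets higher in both sets were. The set 2 chelator arrays were the dimmest of the 6, and whether brightness has a part in these differences was not tested.

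**Figure D3:**
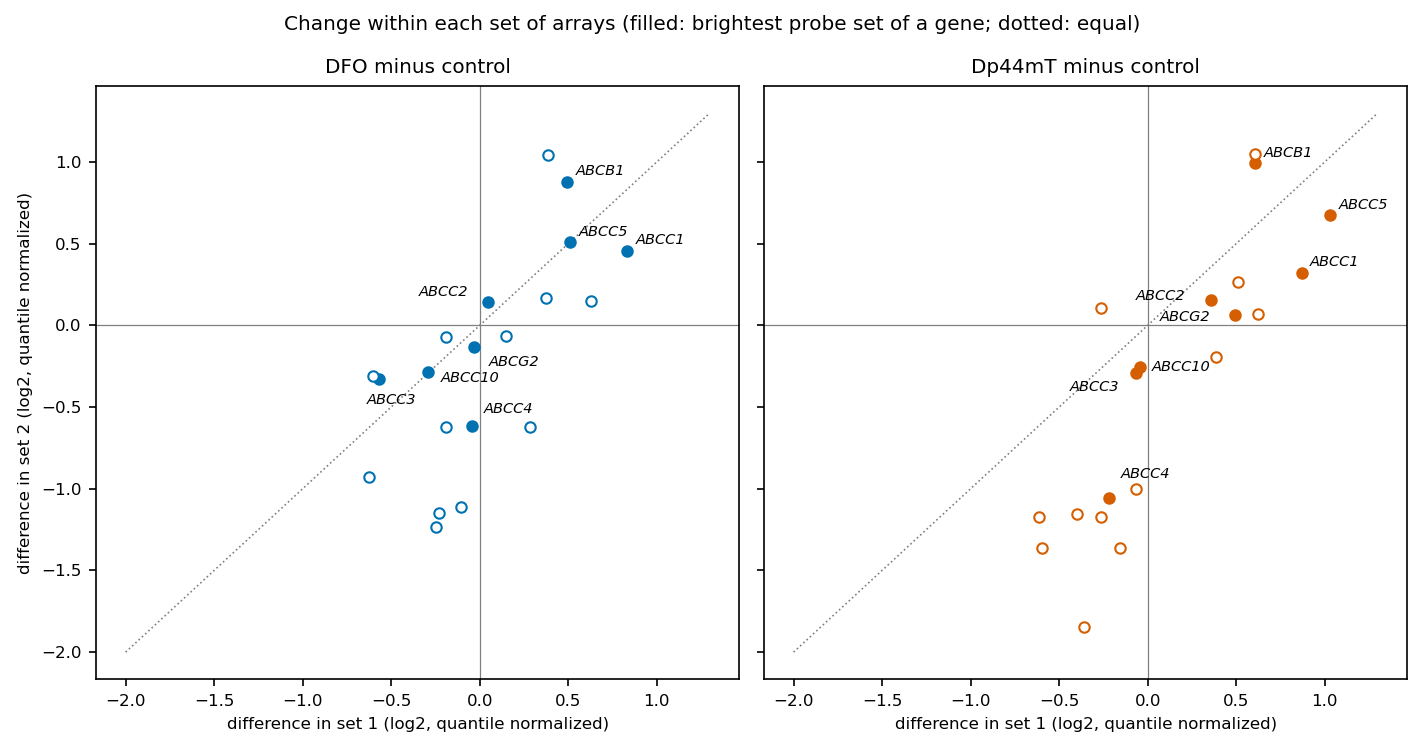
Difference from control in set 1 (horizontal) and in set 2 (vertical) for each tested probe set, on the normalised log2 scale, with the brightest probe set of each gene filled and named. Lower members lie mostly under the dotted line of equality, where the set 2 difference is the more negative, and ABCB1 lies above it in both panels.

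Scaling set the size of all member changes. On the deposited scale the median change over all probe sets was −0.30 in DFO and −0.46 in Dp44mT, and the members moved down with it. ABCC5 209380_s_at kept a positive sign, at 0.26 in DFO and 0.30 in Dp44mT, and ABCC4 203196_at had −0.65 and −1.29 there.

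**Figure D4:**
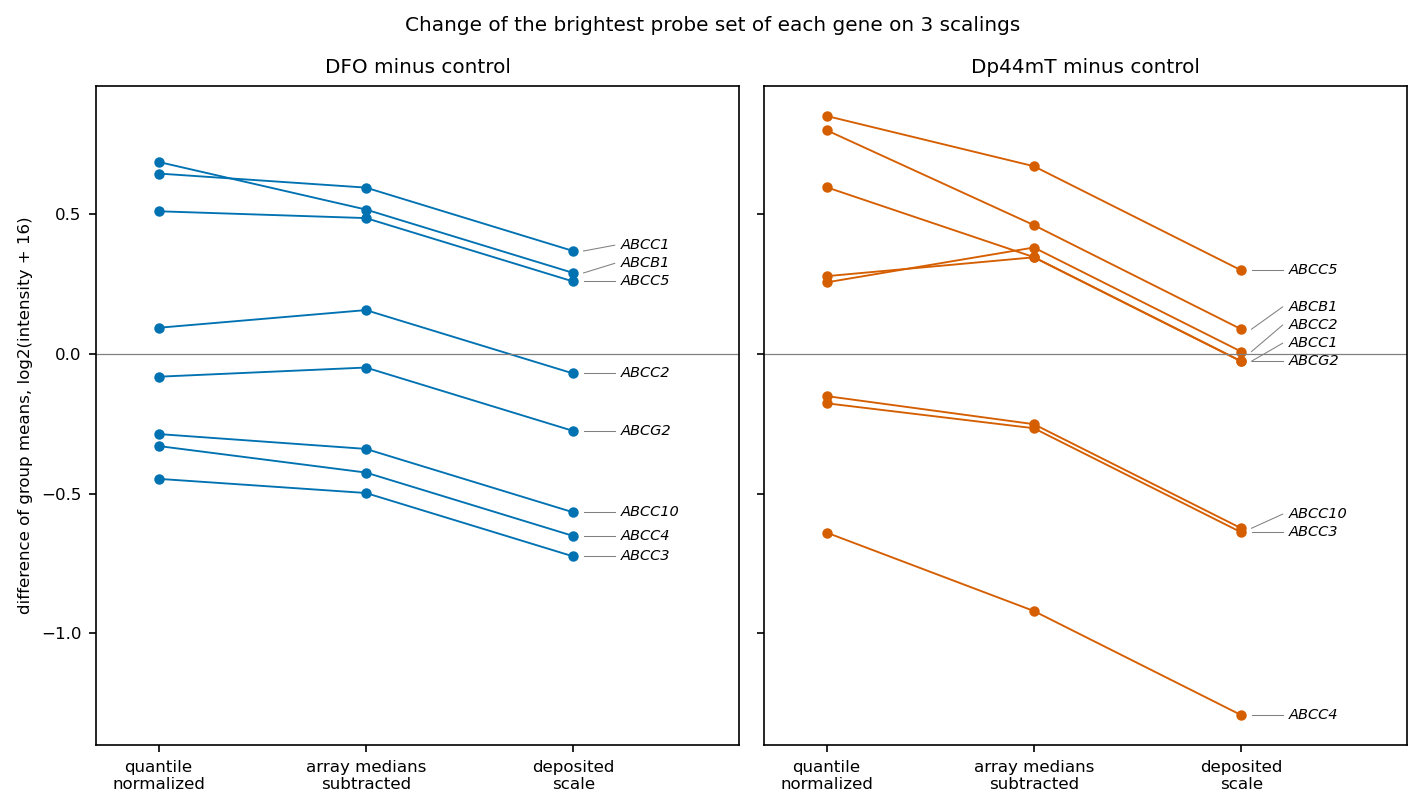
Change of the brightest probe set of each of the 8 genes under quantile normalization, with array medians subtracted and on the deposited scale, in log2(intensity + 16). Every line is lowest on the deposited scale, where ABCB1 in Dp44mT goes down to 0.09. The lines of ABCC2 and ABCG2 first rise with array medians subtracted.

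Dp44mT was also set against DFO directly. Of the 20 probe sets 0 passed, as 0% of all did, and 0 had an unadjusted p under 0.05, where 3.29% of all did (limma). Both Dp44mT arrays lay above both DFO arrays for 5 members, as for 12.9% of all probe sets, and below for 0, as for 12.4% of all. The difference was 0.36 for ABCG2 209735_at (interval −0.17 to 0.89), 0.34 for ABCC5 209380_s_at (interval −0.16 to 0.84) and 0.11 for ABCB1 209993_at (interval −0.42 to 0.65, limma adjusted p = 0.969, 0.969 and 0.97). For ABCC1 202804_at it was −0.05, with an interval of −0.61 to 0.51. These intervals leave room for differences in either direction, and a p over the threshold does not show that the 2 conditions act alike.

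Promoter sequence was available for 6 of the 8 genes as RefSeq windows on GRCh38.p14, 12 in all, of 300 bases that run from 250 before to 50 after a transcript start. They are shown for ABCB1 and ABCC5, which had the largest positive changes in Dp44mT, and for ABCC4, whose probe sets lay mostly below control. Capitals mark matches, on either strand, of motifs bound by regulators of stress and efflux genes. The motifs searched were the hypoxia-inducible factor (HIF) cores ACGTG and GCGTG, the antioxidant response element TGACNNNGC, the AP-1 site TGANTCA, the EGR1 site GCGTGGGCG, which contains GCGTG, the GC box GGGCGG and the CCAAT box. Positions count from 1 at the transcript start and are negative before it.
ABCB1, chr7:87600835-87601134, minus strand: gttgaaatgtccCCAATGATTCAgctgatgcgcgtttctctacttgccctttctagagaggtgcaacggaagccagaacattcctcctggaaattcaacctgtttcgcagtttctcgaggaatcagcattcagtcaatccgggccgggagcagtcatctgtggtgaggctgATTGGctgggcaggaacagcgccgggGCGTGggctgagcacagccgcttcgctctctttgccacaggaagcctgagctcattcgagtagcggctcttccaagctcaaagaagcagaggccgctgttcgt
ABCC5, chr3:184017835-184018134, minus strand: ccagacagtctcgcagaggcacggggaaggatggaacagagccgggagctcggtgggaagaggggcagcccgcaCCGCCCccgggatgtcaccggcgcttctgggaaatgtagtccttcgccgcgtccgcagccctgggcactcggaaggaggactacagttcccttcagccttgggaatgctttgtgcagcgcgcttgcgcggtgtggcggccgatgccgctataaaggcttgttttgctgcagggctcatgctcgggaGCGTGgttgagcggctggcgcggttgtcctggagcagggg
ABCC4, chr13:95301402-95301701, minus strand: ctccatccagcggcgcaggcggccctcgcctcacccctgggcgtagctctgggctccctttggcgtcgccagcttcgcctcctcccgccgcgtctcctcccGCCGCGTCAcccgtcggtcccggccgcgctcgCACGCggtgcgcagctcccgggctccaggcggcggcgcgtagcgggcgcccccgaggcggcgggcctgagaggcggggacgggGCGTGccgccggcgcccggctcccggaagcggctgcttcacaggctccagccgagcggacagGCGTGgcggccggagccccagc
In the ABCB1 window GCGTG began at −53, CCAAT at −238 and, on the opposite strand, at −79, and the AP-1 letters began at −234, overlapping the upstream CCAAT in its last base. A second ABCB1 window, at chr7:87713246-87713545, held none of the motifs. In the ABCC5 window GCGTG began at 11 and a GC box lay on the opposite strand at −176. The ABCC4 window held GCGTG at −117 on the opposite strand, at −34 and at 29, and an antioxidant response element on the opposite strand at −149. Over the 12 windows GCGTG was found in 7, against 36.5% of 35116 promoters, ACGTG in 3 (21.4%), GGGCGG in 4 (45%) and TGACNNNGC in 3 (13.3%). TGANTCA and CCAAT were found in 1 window each (7.71% and 34.6% of promoters), and the EGR1 site in 0 (0.795%). Some windows of ABCG2 overlap one another, and a match of letters describes the sequence and is not a site of binding.

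Genes whose levels ran most like ABCC5 209380_s_at over the 6 arrays were named by the highest Pearson correlation, since that probe set had the smallest p of the 8 brightest. They were ZYX, which encodes a focal adhesion protein (r = 0.999), DEDD2 (r = 0.998) and CHKA, which encodes choline kinase (r = 0.996). The 6 points share arrays and normalization, and 406 of 32236 candidate probe sets had r over 0.95.

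Other ABC transporter genes were read on the brightest probe set of each. Of 40 listed genes 36 had a probe set of their own and 26 were tested. In DFO 0 rose and 0 fell (limma, 0 with an unadjusted p under 0.05), against 0.794% of all genes called, and the list median was −0.01 against −0.04 over all genes. In Dp44mT 0 rose and 0 fell as well (limma, 3 with an unadjusted p under 0.05), against 2.06% of all genes called, and the median was 0.01 against 0.03. Of all probe sets tested, 11.1% in DFO and 21.5% in Dp44mT had an unadjusted p under 0.05 (limma). In a fit on 1 probe set per gene, which is nearer to how the list was read, the shares were 13.3% and 24.1%.

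The mitochondrial transporters were among those not called. ABCB6 had changes of −0.03 in DFO and 0.41 in Dp44mT (limma adjusted p = 0.985 and 0.49). ABCB8 had −0.52 and −0.48 (limma adjusted p = 0.574 and 0.345), and ABCB10, an exporter of the inner mitochondrial membrane needed for haem synthesis, had −0.45 and −0.86 (limma adjusted p = 0.689 and 0.216). The smallest p of the list belonged to ABCE1, a ribosome recycling factor, in DFO (−0.55, limma adjusted p = 0.527) and to ABCD3, a peroxisomal fatty acid transporter, in Dp44mT (−0.66, limma adjusted p = 0.129). ABCE1 had −0.84 in Dp44mT (limma adjusted p = 0.155), and ABCF2 had −0.42 in DFO (limma adjusted p = 0.579).

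**Figure D5:**
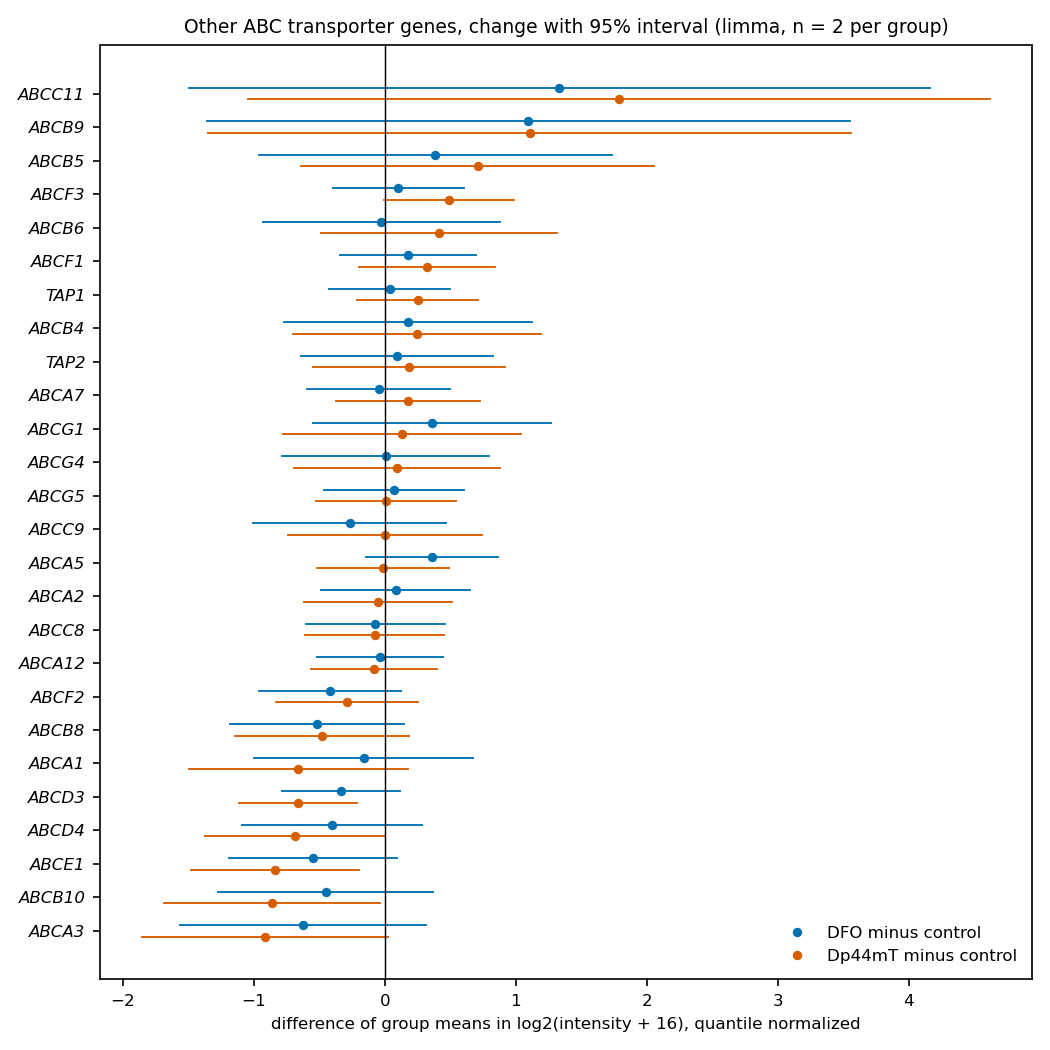
Change of the 26 tested ABC transporter genes outside the 8 in DFO and in Dp44mT relative to control, in log2(intensity + 16) with 95% intervals from limma (n = 2 arrays per group). None passed the test in limma, and ABCC11 and ABCB9 have the widest intervals.

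Glutathione and its conjugates are substrates of several ABCC exporters. In Dp44mT, 1 of 21 genes of glutathione supply and conjugation rose and 0 fell, against 2.06% of all genes called, with a median of −0.03 against 0.03 over all genes. There 7 of the 21 had an unadjusted p under 0.05 (limma), where 21.5% of all probe sets tested did. In the fit on 1 probe set per gene the share was 24.1%. The gene that rose was GCLC, the catalytic subunit of the enzyme that limits glutathione synthesis, which read 11.19 and 10.88 in DFO, 11.93 and 11.92 in Dp44mT, and 9.98 and 10.10 in control. GCLC rose 3.69-fold in Dp44mT (log2 1.88, SE 0.20, limma adjusted p = 0.0255), and its change in DFO was 0.99 (limma adjusted p = 0.164). In DFO 0 of 21 rose or fell, against 0.794% of all genes called, and the median was −0.19 against −0.04 over all genes. Of the 21, 3 had an unadjusted p under 0.05 in DFO (limma), where 11.1% of all probe sets tested did. In the fit on 1 probe set per gene the share was 13.3%. MGST1 stood at −0.96 and GSTA4 at −0.67, both enzymes of glutathione conjugation (limma adjusted p = 0.261 and 0.354). Of 7 tested genes for other drug export 0 passed in either chelator in limma (0 with an unadjusted p under 0.05 in DFO and 1 in Dp44mT, medians 0.07 and −0.23).

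That 1 was ATP7B, a copper-exporting ATPase. It read 8.46 and 8.35 in DFO, 7.27 and 6.72 in Dp44mT, and 8.01 and 8.13 in control. The change was 0.34 in DFO (limma adjusted p = 0.692) and −1.07 in Dp44mT (limma adjusted p = 0.0997), and the direct difference of −1.41 (interval −2.03 to −0.79) had an adjusted p of 0.969 in limma over all probe sets. The others with the smallest p were SLC22A5, a carnitine transporter (−0.62 and −0.99, limma adjusted p = 0.702 and 0.299), MVP, the major vault protein, in DFO (−0.17, limma adjusted p = 0.811) and SLCO4A1, an organic anion transporter, in Dp44mT (0.44, limma adjusted p = 0.38).

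Of 19 tested regulators of efflux genes, 2 rose and 0 fell in each chelator, against 0.794% of all genes called in DFO and 2.06% in Dp44mT. An unadjusted p under 0.05 (limma) was found for 7 in DFO and 8 in Dp44mT, where 11.1% and 21.5% of all probe sets tested had one. In the fit on 1 probe set per gene the shares were 13.3% and 24.1%. The list median was 0.13 in DFO, against −0.04 over all genes, and 0.20 in Dp44mT, against 0.03. In Dp44mT it turned sign between the sets, with 0.41 in set 1 and −0.10 in set 2. EGR1, a zinc finger factor induced by growth and stress signals, read 9.0 and 8.75 in DFO, 9.44 and 9.65 in Dp44mT, and 5.93 and 6.20 in control. It rose 7.03-fold in DFO (log2 2.81, limma adjusted p = 0.0177) and 11.2-fold in Dp44mT (log2 3.48, limma adjusted p = 0.00974). EPAS1, which encodes HIF-2α, rose 3.99-fold in DFO (log2 2.00, limma adjusted p = 0.0497) and 3.41-fold in Dp44mT (log2 1.77, limma adjusted p = 0.0413).

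Iron-responsive and hypoxia-responsive genes were listed as checks of the chelator response. The list was chosen with earlier results of these data known, so increases in it are no independent check. Of 5 checks 4 rose and 0 fell in each chelator, against 0.794% of all genes called in DFO and 2.06% in Dp44mT. Those that rose were NDRG1, VEGFA, BNIP3 and EGLN3. The smallest of these increases was that of BNIP3, 3.25-fold in DFO and 2.82-fold in Dp44mT, and the largest that of EGLN3, 6.73-fold and 5.48-fold. TFRC, the transferrin receptor, had changes of 0.84 and 0.70 and did not pass (limma adjusted p = 0.2 and 0.126). These increases and those of GCLC, EGR1 and EPAS1 were all lost when any 1 array of the 2 groups compared was left out, since 0 probe sets then passed (limma, between 4.12% and 30.9% with an unadjusted p under 0.05). The changes themselves stayed between 1.43 and 3.61 on the log2 scale. On the deposited scale none of them passed either (limma adjusted p between 0.0784 and 0.943).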

How the data were processed

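RNA of 6 arrays was analysed, 2 each for DFO, Dp44mT and control. Each deposited value is the linear intensity of a probe set. The submitters' processing notes name Affymetrix Expression Console 1.1. The summarization and normalization behind them are not given in the sources used here. Arrays give no counts, so their number limits the precision.

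Intensities were taken as log2(intensity + 16), quantile normalized across the 6 arrays and tested with limma 3.58.1 in R 4.3.3, with the 3 groups in 1 fit (3 residual degrees of freedom, 2.53 prior). Control probe sets and probe sets with a mean under the 25th percentile were left out. Shares and median changes given for all probe sets are over those tested. The fit was also run on simulated data with known changes. Those data had independent arrays and the same spread of a probe set in all groups. In the real arrays the median SD between arrays was 0.119 in control, 0.292 in DFO and 0.287 in Dp44mT. The simulation therefore does not show how well changes are recovered here. Probe sets were named from the platform annotation, which gave 1 symbol for 41097, several for 1801 and none for 11777, and symbols were updated through RefSeq gene identifiers. A gene of a list was read on its brightest probe set with 1 symbol. The text names every member probe set, and of each other list the genes past the threshold or else the 3 with the smallest p, together with the checks and mitochondrial transporters. Listed genes without a probe set of their own in the tables used are not reported here. The members and lists were chosen with earlier results of these data known. There were 16 alternative settings, on scaling, pseudocount, filter, features, groups in the fit, the set number as a block and arrays left out, and 1 was added after seeing the data.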

Additional observations from a re-analysis of the deposited data

How the results depend on the processing

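The limits are 2 arrays per group and the spread of array brightness. Over those of the 16 alternative settings with 2 arrays in each group compared, the count of members called was 0 throughout. Without the set 2 chelator arrays the change of ABCC5 209380_s_at in Dp44mT was 0.97. Leaving out 1 array of the groups compared left 1 array in a group. Counts of calls from those fits cannot show how stable the member result is. The other ABC transporter genes gave 0 calls when 1 array of the group not compared was left out. Of 48 single changes, 15 reversed sign in at least 1 alternative (25 of 732 values), and the cause was not tested. On the deposited scale the reversed changes in DFO were −0.070 (ABCC2) and −0.12 (ABCC4 243928_s_at). In Dp44mT they were −0.026 and −0.18 (ABCC1 202804_at and 202805_s_at), −0.14 (ABCC4 243928_s_at), −0.012 (ABCC5 1558460_at) and −0.027 (ABCG2). For Dp44mT against DFO they were −0.20 (ABCB1 209993_at) and −0.057 (ABCC10 215873_x_at), with −0.056 for ABCB1 209993_at when array medians were subtracted. Without the set 2 chelator arrays they were 0.16 (ABCB1 243951_at, DFO), 0.055 (ABCC3 239217_x_at, Dp44mT) and 0.036 (ABCC1 202804_at, Dp44mT against DFO).

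With 1 array left out at a time, the changes that reversed in some of these fits ran, in DFO, from −0.012 to 0.10 for ABCC4 243928_s_at, −0.27 to 0.0047 for ABCC3 230682_x_at and −0.50 to 0.16 for ABCB1 243951_at. In Dp44mT they ran from −0.34 to 0.18 for ABCC3 230682_x_at, −0.14 to 0.34 for ABCC4 243928_s_at and −0.41 to 0.055 for ABCC3 239217_x_at, and for Dp44mT against DFO from −0.017 to 0.24 for ABCB1 209993_at, −0.23 to 0.14 for ABCC1 202804_at and −0.66 to 0.042 for ABCC4 203196_at.

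All probe sets called numbered 241 in DFO, and 31 on the deposited scale, 144 with array medians subtracted, 156 and 437 with pseudocounts of 1 and 64, 393 with the higher filter, 57 with only the 2 groups compared and 367 without the set 2 chelator arrays. In Dp44mT they numbered 670, of which 439 were higher and 231 lower, and 39 (15 higher, 24 lower) on the deposited scale, 363 (183 higher, 180 lower) with medians subtracted, 342 and 1433 with the pseudocounts, 1114 with the higher filter and 3194 without the set 2 chelator arrays. Each fell to 0 without any 1 array of the groups compared.

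The labels do not tell what arrays of a set share, and same-numbered arrays did not deviate together in every pair of groups: deviations from the group means correlated at −0.23 between DFO and control, −0.33 between Dp44mT and control and 0.83 between Dp44mT and DFO. With the set number as a replicate block, 208 probe sets passed in DFO and 1245 in Dp44mT, with 0 members in each, and EPAS1 and BNIP3 in DFO did not pass (limma adjusted p = 0.0693 and 0.0537). With the same block and the control numbers crossed, an alternative added after seeing the data, 809 and 5796 passed, with 0 and 3 members and 0 and 2 other ABC genes.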

Other observations

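ABCB9 and ABCC11, ABC transporters outside the drug exporters above, differed in sign between the sets and were chosen after their values were seen. ABCB9, a lysosomal peptide transporter, read 8.09 and 9.73 in DFO, 7.73 and 10.12 in Dp44mT, and 8.51 and 7.12 in control. Its difference from control was −0.42 in set 1 and 2.60 in set 2 in DFO, and −0.78 and 3.0 in Dp44mT. ABCC11, an exporter of lipophilic anions, read 6.09 and 7.80 in DFO, 6.03 and 8.77 in Dp44mT, and 6.54 and 4.69 in control. Its difference was −0.44 in set 1 and 3.11 in set 2 in DFO, and −0.50 and 4.08 in Dp44mT. Neither passed in limma (adjusted p = 0.737 and 0.497 for ABCB9, 0.726 and 0.383 for ABCC11).

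GCLM, the modifier subunit of the glutathione-limiting enzyme, was also chosen after its values were seen. It read 11.31 and 11.16 in DFO, 12.25 and 12.08 in Dp44mT, and 10.82 and 11.05 in control. Its change was 0.30 in DFO (limma adjusted p = 0.674) and 1.22 in Dp44mT (limma adjusted p = 0.0578), and the direct difference was 0.93 (limma adjusted p = 0.969).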
